A study of Canis lupus familiaris with 12 samples.

Results

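Potassium channel genes were taken from the hippocampal expression table as every symbol that begins with KCN, with KCNJ8 and KCNJ13 left out by the rule, and a mean of at least 0.5 RPKM over 6 libraries. RPKM divides a gene's reads by its exon length and by the library's total of assigned reads, so levels can be compared between genes. Of 88 candidate genes 63 met the rule, out of 31158 gene models in the table and 16090 that reached the same mean level and were tested. All 63 are protein-coding in a RefSeq gene table. They comprised 29 pore-forming subunits of voltage-gated channels, 8 auxiliary subunits of these, 10 inward rectifiers, 7 two-pore channels and 9 calcium-activated channels and their relatives.

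The hippocampi came from beagle dogs that had undergone rapid atrial pacing for 2 weeks, which induces atrial fibrillation, or a sham operation. Each arm had 3 libraries of stranded mRNA-seq from total RNA, and the study asked how atrial fibrillation bears on cognitive impairment. Genotype, sex and age were not given in the labels, nor whether each library came from a separate dog, so p-values measure the spread between libraries, which may be technical. Exosome libraries of epicardial fat from the same study were not used here.

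Potassium channels let potassium leave the cell and so set the resting potential, end the action potential and limit repetitive firing. Voltage-gated channels open on depolarisation. Inward rectifiers hold the resting potential, answer G proteins or sense ATP, and two-pore channels carry the background leak. Calcium-activated channels link firing to the afterhyperpolarisation. In hippocampus, A-type currents in pyramidal cell dendrites, the M current, G protein-gated inward rectifiers and the potassium uptake of astrocytes are the best known of these conductances.

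The libraries held 35003483 to 51789497 assigned reads, and a member drew between 314 reads over all libraries (KCNA5) and 101865 (KCNAB2). On a first principal component with 45.3% of the variance of all tested genes, sham replicate 2 stood at 39.6 and sham replicate 3 at 8.61, while the other 4 libraries lay between -13.5 and -9.62. Hippocampal neuron markers were present in every library, with NEUROD6 from 188 to 345 RPKM, CALB1 from 7.97 to 29.4 and PROX1 from 4.82 to 7.90. Sham replicate 2 had the highest summed oligodendrocyte markers, 2705 RPKM against 1086 to 1844 in the others. All 6 of these markers were highest there and lowest in sham replicate 3. Sham replicate 2 also had the highest sum of 5 astrocyte markers, 2390 against 1377 to 1757, which rested on GFAP (1525 against 561 to 901). Without GFAP the other 4 summed to 865 RPKM in sham replicate 2, below 937 and 915 in pacing replicates 1 and 3. The 8 granule and pyramidal neuron markers summed to 584, 772 and 569 in pacing and 674, 459 and 497 in sham. In bulk tissue, fewer cells of a type and less RNA per cell cannot be told apart. Below, values in threes are replicates 1, 2 and 3 in that order, values with ± are mean and SD over n = 3 libraries per arm unless SE is named, and log2 differences are pacing minus sham on log2(RPKM + 1).

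The potassium channel repertoire was led by a few genes, most of them tied to axonal and dendritic voltage-gated channels. KCNAB2, a beta subunit of the axonal KCNA channels, had the highest level, with 94.3, 115 and 86.8 RPKM in pacing and 89.8, 78.2 and 64.1 in sham. KCND2, the main pore of the dendritic A-type current, followed with 40.3, 55.4 and 40.9 RPKM in pacing and 45.5, 28 and 22.7 in sham. KCNJ3, a pore of G protein-gated inward rectifiers, came after these by mean (25.7 RPKM), and these 3 genes held 30.7% of the summed mean level of all members. KCNK1 (22.6), KCNA2 (22.2), KCNAB1 (21.4) and KCNJ10 (18.6) came next. Means were 10 RPKM or more for 15 members, between 1 and 10 for 40 and under 1 for 8. KCNAB2 was highest of all members in every library. KCND2 came next in every library but sham replicate 3, where KCNJ3 (27.1 RPKM) and KCNA2 (24.6) lay above it. The ranges of KCNJ3, KCNK1, KCNA2, KCNAB1 and KCNJ10 over the libraries overlapped, so their order is within the spread between libraries.

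**Figure D1:**
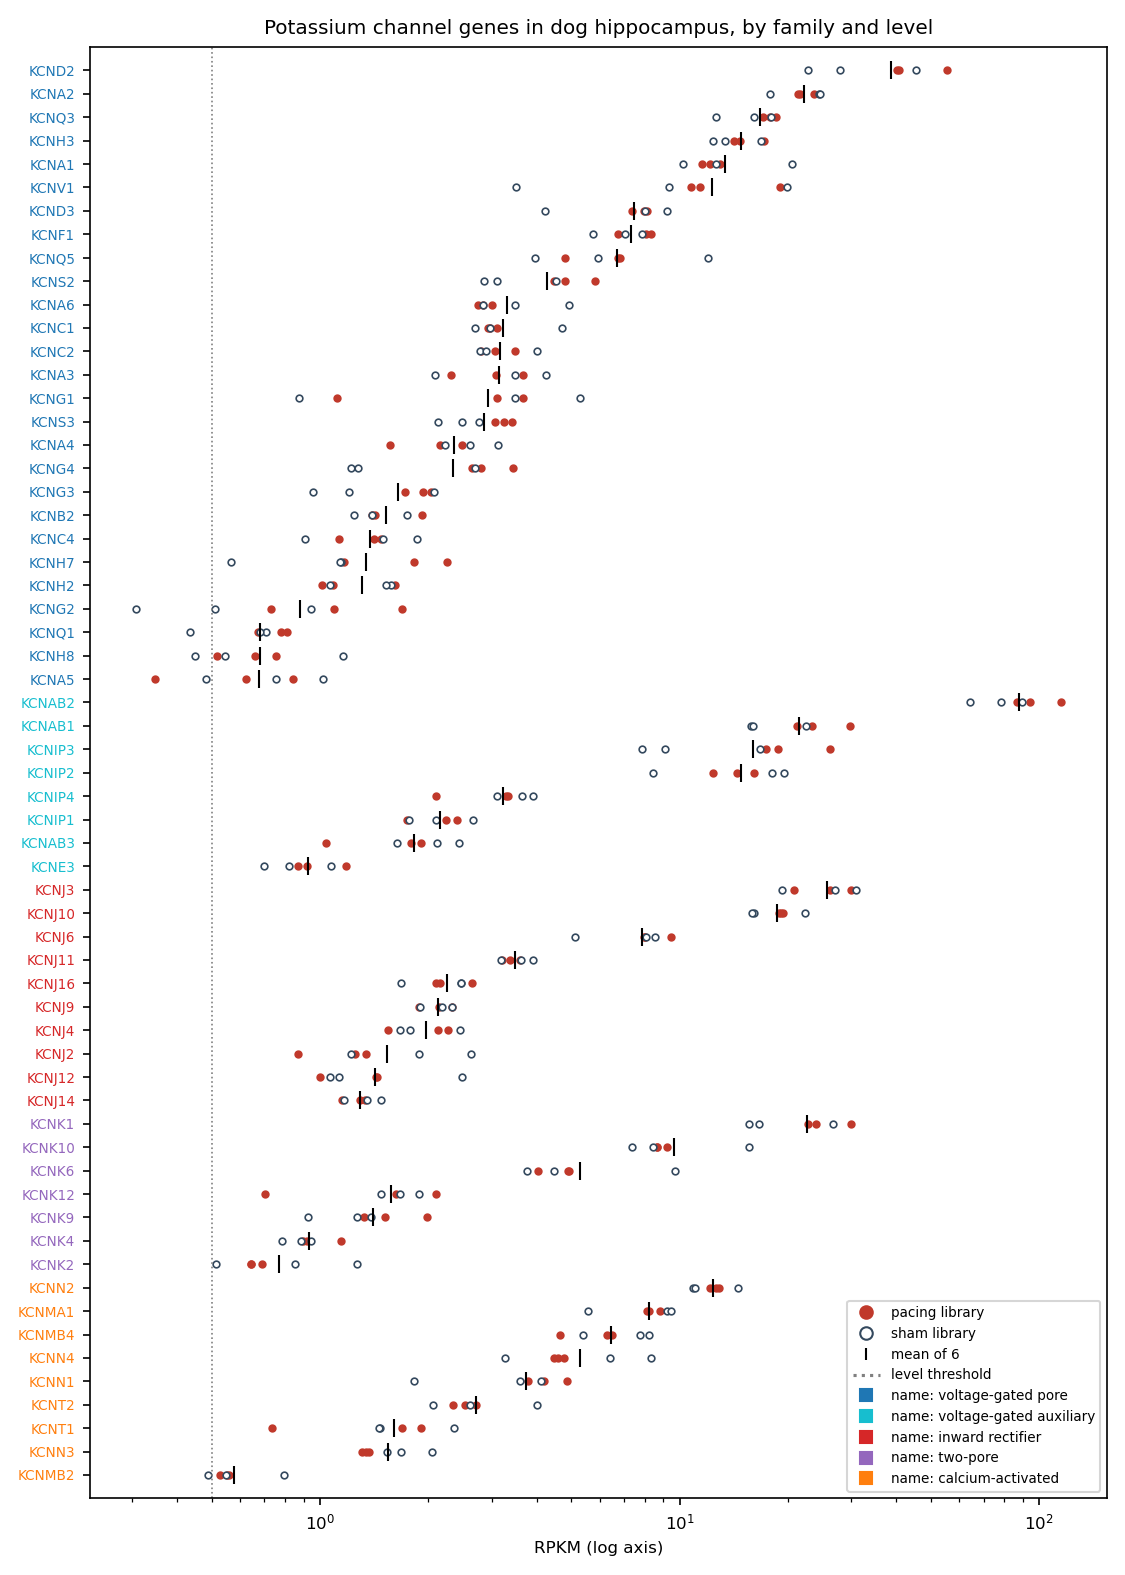
RPKM (log axis) of 61 of the 63 potassium channel genes, grouped by family and ordered by mean level; filled points are pacing libraries, open points sham libraries and bars the mean of 6. KCNAB2 lies at 64.1 to 115 RPKM, above every other gene, and the arms overlap for most genes.

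Just inside the level threshold lay KCNMB2 (0.578 RPKM), an auxiliary subunit of the large-conductance calcium-activated channel, and KCNA5 (0.678). Just outside lay KCND1 (0.461 RPKM). The 25 genes below the threshold had means from 0.00618 to 0.461 RPKM, and 9 of them had no read in at least 1 library. They included KCNJ5, the G protein-gated inward rectifier best known from heart atrium (0.241 RPKM), which was looked up after the values were seen.

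No potassium channel gene passed the threshold between pacing and sham. The test was limma on log2(RPKM + 1) with p-values adjusted by the Benjamini-Hochberg method over all 16090 genes at 0.05, and it called 4 genes, 0.0249% of those tested. By log2 difference 32 members were higher in pacing and 31 lower, with a median of 0.00 and a range from -0.41 to 0.88. KCNA2 and KCNJ3 were counted as higher by differences near 0, although their mean RPKM was slightly lower in pacing. Over all genes tested the median was -0.04, and 41.1% were higher. An unadjusted p under 0.05 was reached by 6 members, all higher in pacing (9.52%, against 2.85% of all genes higher at that p), and by 0 members that were lower (against 6.3%; 9.15% in either direction). These 6 were KCNIP3, KCNAB1, KCNS2, KCNS3, KCNG4 and KCNH7.

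That count changed with the library left out, in fits that also had 1 library fewer. The number higher was 0 without pacing replicate 2 (against 1.6% of all genes), 5 without pacing replicate 1 (1.68%), 2 without sham replicate 3 (3.11%) and 3 without pacing replicate 3 (2.45%). It was 11 higher and 6 lower without sham replicate 1, where 6.3% and 13% of all genes did the same. Without sham replicate 2 it was 4 higher (KCNH7, KCNIP3, KCNJ10 and KCNN1) and 1 lower (KCNIP2), where 4.72% and 7% of all genes did so. Every pacing library lay above every sham library for 3 members (4.76%, against 4.92% of all genes), and below for 1 member (1.59%, against 11.3%, and 16.2% in either direction). Together 6.35% of members separated the arms, below the share among all genes.

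**Figure D2:**
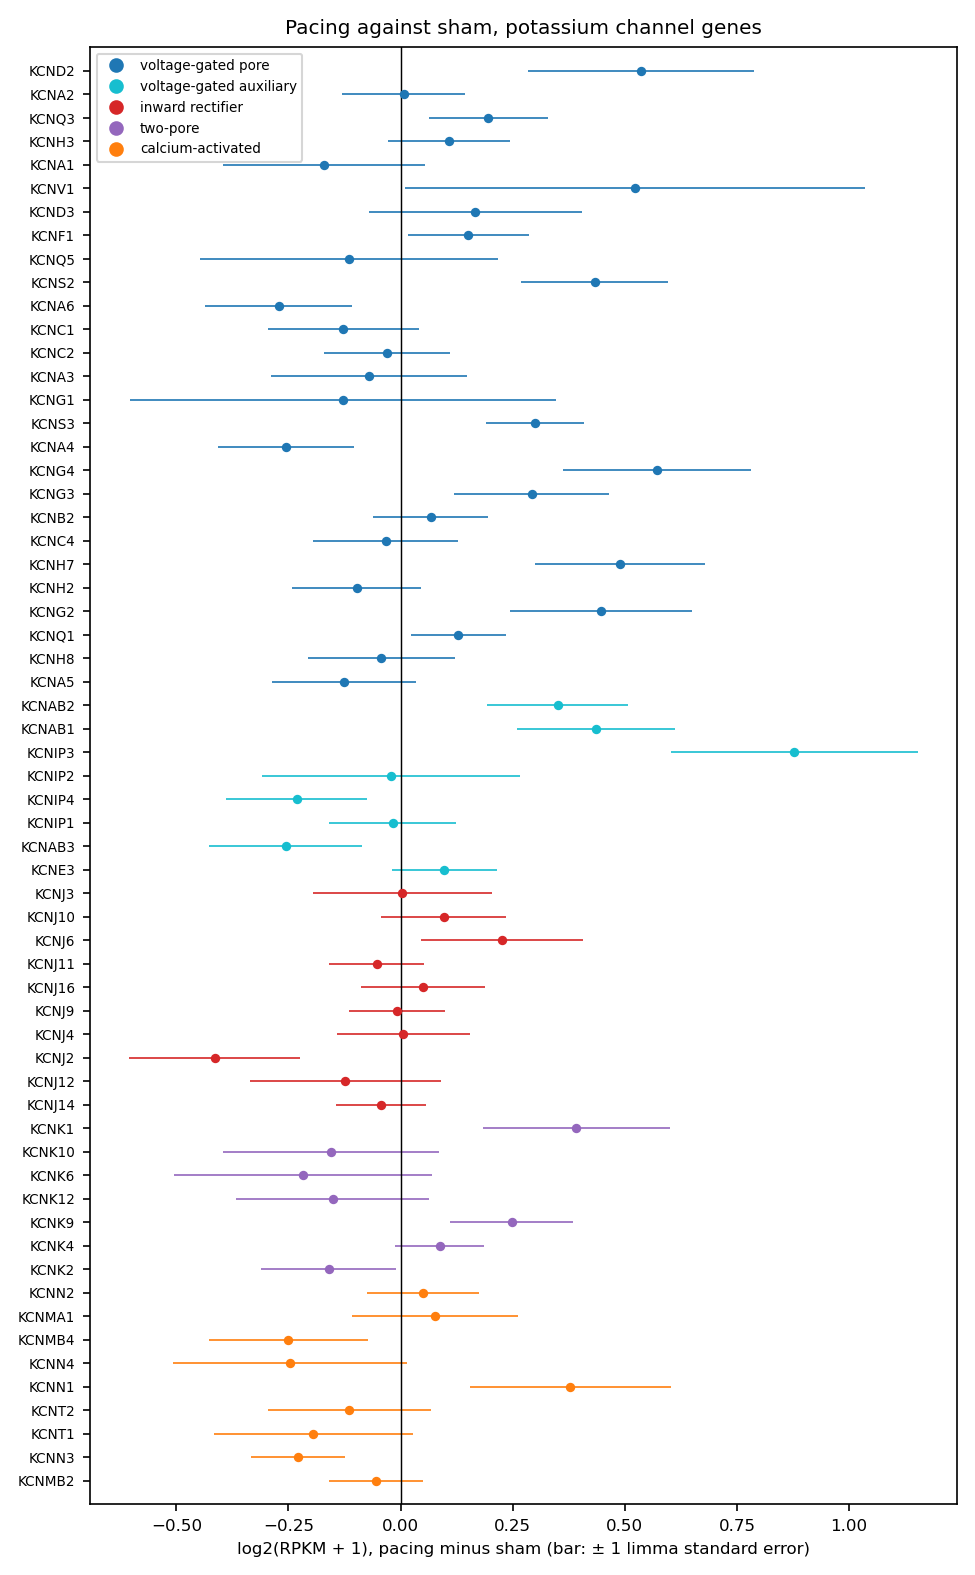
Pacing minus sham on log2(RPKM + 1) for 61 of the 63 genes, with bars of ± 1 limma standard error, coloured by family. The points spread on both sides of 0, from -0.41 for KCNJ2 to 0.88 for KCNIP3.

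Among the voltage-gated pores, the KCNA genes make low-threshold channels of axons and terminals. KCNA2 averaged 22.2 ± 1.29 RPKM under pacing against 22.3 ± 3.81 under sham and did not separate the arms (log2 difference 0.01, adjusted p = 0.991). KCNA1, its usual partner in axons, had 11.6, 13 and 12.2 RPKM in pacing and 10.2, 20.6 and 12.6 in sham. The sham libraries thus held both the lowest and the highest KCNA1 values. KCNA6 had 2.74, 2.84 and 3.02 RPKM in pacing and 2.84, 4.92 and 3.47 in sham (log2 difference -0.27 ± 0.16, SE; adjusted p = 0.629). KCNA4, a fast-inactivating member, averaged 2.07 ± 0.462 RPKM under pacing against 2.65 ± 0.454 under sham (log2 difference -0.26 ± 0.15, SE; adjusted p = 0.628). KCNA3 averaged 3.02 ± 0.675 RPKM under pacing against 3.28 ± 1.11 under sham. KCNA5 averaged 0.605 ± 0.248 RPKM under pacing against 0.751 ± 0.267 under sham. By log2 difference 5 of the 6 KCNA genes were lower in pacing, with a median of -0.15, and KCNA2 lay near 0.

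KCNA1, KCNA5 and KCNA6 are neighbours on chromosome 27 of the dog assembly CanFam3.1, and KCNA2, KCNA3 and KCNC4 lie near each other on chromosome 6. KCNA5 was at chromosome 27 from 39808987 to 39810789, KCNA1 from 39928347 to 39936753 and KCNA6 from 40042051 to 40045812. Their mean levels were 0.678, 13.3 and 3.3 RPKM. KCNA1 and KCNA6 were both highest in sham replicate 2, at 1.69 and 1.73 times the median of the other 5 libraries, while KCNA5 was at 0.638 times that median. KCNA2 and KCNA3, on chromosome 6, were both lowest in sham replicate 2, at 0.755 and 0.596 times.

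The dendritic A-type pores differed in their profile over libraries. KCND2, whose values are given above, was highest in pacing replicate 2 and lowest in sham replicate 3; sham replicate 1 lay above pacing replicates 1 and 3, so the arms overlapped (log2 difference 0.54 ± 0.25, SE; adjusted p = 0.574). Its relative KCND3 had 8.13, 7.35 and 7.94 RPKM in pacing and 8.03, 4.23 and 9.22 in sham. The ratio of KCND2 to KCND3 was 4.96, 7.54 and 5.14 in pacing and 5.67, 6.61 and 2.47 in sham. KCND3 was lowest in sham replicate 2 and highest in sham replicate 3, the library in which KCND2 was lowest.

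The M current, a slow brake on firing, is carried by channels of the KCNQ family, KCNQ3 and KCNQ5 among them. KCNQ3 had 17.1, 17.8 and 18.5 RPKM in pacing and 16.1, 12.6 and 17.9 in sham (log2 difference 0.20 ± 0.13, SE; adjusted p = 0.666). It was lowest in sham replicate 2 and highest in pacing replicate 3. KCNQ5 varied more, with 6.83, 4.79 and 6.73 RPKM in pacing and 5.92, 3.95 and 12 in sham, and sham replicate 3 was 2.03-fold the median of the others. KCNQ1, better known from heart and epithelia, was low at 0.754 ± 0.0745 RPKM under pacing against 0.608 ± 0.151 under sham.

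KCNB2, a delayed rectifier, averaged 1.58 ± 0.297 RPKM under pacing against 1.46 ± 0.261 under sham. The KCNF, KCNG, KCNS and KCNV genes encode silent subunits that form no channel alone and modify KCNB channels. Of these 8 members 7 were higher in pacing by arm mean, with a median log2 difference of 0.37. Their summed RPKM was 36, 42.6 and 36.5 in pacing and 43, 25.6 and 23.5 in sham, so sham replicate 1 lay above every pacing library and the other 2 sham libraries lay below.

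KCNS3 was the silent subunit whose arms did not overlap. It had 3.26, 3.42 and 3.07 RPKM in pacing and 2.77, 2.13 and 2.48 in sham, each pacing value above each sham value (log2 difference 0.30 ± 0.11, SE; adjusted p = 0.487; unadjusted p = 0.027). KCNS3 lay at chromosome 17 from 13297242 to 13338319 (CanFam3.1), and 7.24% of its exon bases overlapped a gene model on the other strand, LOC106559875, that was itself at 0.140 RPKM. KCNS2 had 4.47, 5.81 and 4.81 RPKM in pacing and 4.54, 2.87 and 3.11 in sham (log2 difference 0.43 ± 0.16, SE; adjusted p = 0.506), and sham replicate 1 lay just above pacing replicate 1. KCNG4 had 2.65, 3.44 and 2.79 RPKM in pacing and 2.7, 1.27 and 1.22 in sham (log2 difference 0.57 ± 0.21, SE; adjusted p = 0.488), with sham replicates 2 and 3 far below the other 4 libraries. Without sham replicate 1 its adjusted p = 0.0581 with limma, the smallest of any member over the 15 alternatives reported.

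The largest variation between libraries was also found among silent subunits. KCNG1 had a coefficient of variation of 57.2%, with 3.11, 1.11 and 3.68 RPKM in pacing and 3.5, 0.873 and 5.29 in sham. It was low in pacing replicate 2 and in sham replicate 2, and its arms overlapped (log2 difference -0.13 ± 0.48, SE; adjusted p = 0.946). KCNG2 (55.5%) had 1.69, 1.09 and 0.728 RPKM in pacing and 0.51, 0.308 and 0.941 in sham from 344 reads in all (log2 difference 0.45 ± 0.20, SE; adjusted p = 0.559). KCNV1 (50.2%) had 10.7, 19 and 11.4 RPKM in pacing and 19.8, 9.37 and 3.52 in sham, with pacing replicate 2 and sham replicate 1 high and sham replicate 3 low (log2 difference 0.52 ± 0.51, SE; adjusted p = 0.761). Its difference turned to -0.04 without sham replicate 3. The median coefficient of variation was 22.8% over the members and 15.8% over all genes tested. KCNG3 averaged 1.9 ± 0.162 RPKM under pacing against 1.41 ± 0.585 under sham and KCNF1 averaged 7.72 ± 0.847 RPKM under pacing against 6.88 ± 1.05 under sham.

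Of the KCNC genes, KCNC1 and KCNC2 make the fast delayed rectifiers of fast-spiking interneurons. KCNC1 had 3.11, 2.97 and 2.94 RPKM in pacing and 2.97, 2.7 and 4.7 in sham, with 5 libraries within 2.70 to 3.11 RPKM and sham replicate 3 apart. KCNC2 averaged 3.12 ± 0.353 RPKM under pacing against 3.23 ± 0.677 under sham and KCNC4 averaged 1.34 ± 0.183 RPKM under pacing against 1.42 ± 0.482 under sham. PVALB, the marker of fast-spiking interneurons, had 11, 12.4 and 13.3 RPKM in pacing and 8.07, 9.77 and 6.96 in sham, lowest in the library where KCNC1 was highest, while GAD1, an enzyme of GABA synthesis, was highest there with 39.1, 28.2 and 35.5 RPKM in pacing and 43.8, 23.7 and 52.8 in sham.

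Of the ether-a-go-go relatives, KCNH3 was the most abundant at 15.3 ± 1.56 RPKM under pacing against 14.2 ± 2.35 under sham. KCNH7 had 1.16, 2.25 and 1.82 RPKM in pacing and 1.14, 1.14 and 0.567 in sham, with its pacing values above all sham values (log2 difference 0.49 ± 0.19, SE; adjusted p = 0.522; unadjusted p = 0.0357). The gap was narrow, since pacing replicate 1 exceeded sham replicate 1 by little, and pacing replicate 2 was highest. KCNH7 lay at chromosome 36 from 7781323 to 8260893 (CanFam3.1). KCNH2, the pore of the rapid cardiac repolarising current, averaged 1.24 ± 0.327 RPKM under pacing against 1.39 ± 0.278 under sham and KCNH8 averaged 0.643 ± 0.121 RPKM under pacing against 0.716 ± 0.385 under sham.

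The auxiliary subunits held the member with the largest difference. KCNIP3, a calcium-binding partner of KCND channels also known as the transcriptional repressor DREAM, had 17.3, 26.2 and 18.8 RPKM in pacing and 16.8, 9.11 and 7.86 in sham. Every pacing value lay above every sham value, with pacing replicate 1 close to sham replicate 1 (log2 difference 0.88 ± 0.27, SE; adjusted p = 0.439; unadjusted p = 0.0144). Leaving out each library in turn or changing the processing gave adjusted p from 0.0625 (without sham replicate 1) to 0.98 (without pacing replicate 2) for it. KCNIP3 lay at chromosome 17 from 34725433 to 34808429 (CanFam3.1).

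KCNIP2, of the same family, had a different profile, with 14.4, 16.1 and 12.4 RPKM in pacing and 18.1, 8.42 and 19.5 in sham. It was highest in sham replicate 3, where KCNIP3 was lowest, so the ratio of KCNIP3 to KCNIP2 ran from 0.402 in sham replicate 3 to 1.63 in pacing replicate 2 (1.2, 1.63 and 1.52 in pacing and 0.928, 1.08 and 0.402 in sham). KCNIP2 did not separate the arms (log2 difference -0.02). KCNIP4 averaged 2.91 ± 0.702 RPKM under pacing against 3.55 ± 0.409 under sham (log2 difference -0.23 ± 0.16, SE; adjusted p = 0.665) and KCNIP1 averaged 2.13 ± 0.346 RPKM under pacing against 2.18 ± 0.448 under sham.

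Of the beta subunits of KCNA channels, KCNAB2 had its values given above; 64.1 and 78.2 RPKM in sham replicates 3 and 2 were the lowest, and sham replicate 1 lay within the pacing values (log2 difference 0.35 ± 0.16, SE; adjusted p = 0.558). KCNAB1 had 21.2, 29.8 and 23.3 RPKM in pacing and 22.5, 15.8 and 16 in sham and again sham replicate 1 overlapped pacing (log2 difference 0.44 ± 0.18, SE; adjusted p = 0.536). The ratio of KCNAB1 to KCNAB2 was 0.225, 0.26 and 0.269 in pacing and 0.25, 0.203 and 0.25 in sham. KCNAB3 averaged 1.58 ± 0.474 RPKM under pacing against 2.06 ± 0.398 under sham (log2 difference -0.26 ± 0.17, SE; adjusted p = 0.655). KCNE3, a single-span subunit, averaged 0.991 ± 0.169 RPKM under pacing against 0.863 ± 0.189 under sham.

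**Figure D3:**
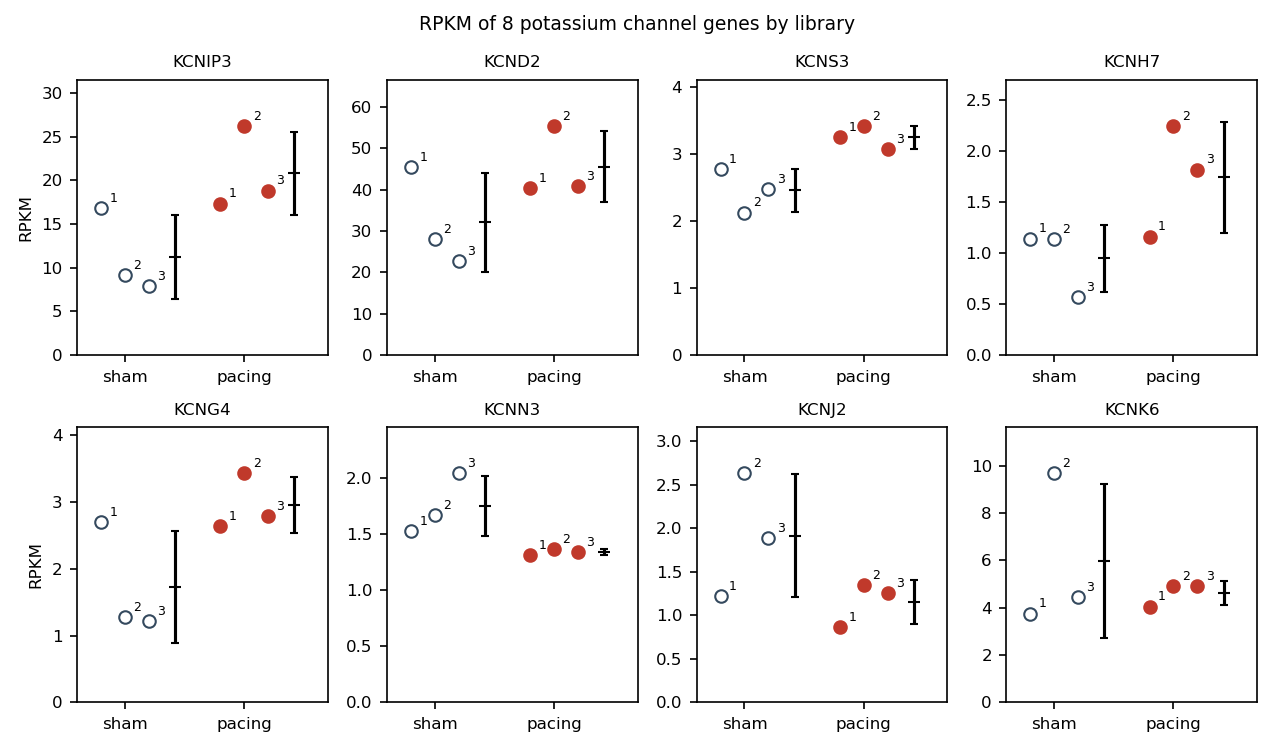
RPKM of 8 potassium channel genes in each library (number: replicate), with bars of mean and SD over 3 libraries per arm. The arms do not overlap for KCNIP3, KCNS3, KCNH7 and KCNN3 and overlap for KCND2, KCNG4, KCNJ2 and KCNK6, in which 1 or 2 sham libraries stand away from the rest.

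The inward rectifiers were the family with the lowest variation between libraries. Their median coefficient of variation was 16.9%, beside 15.8% over all genes tested, and KCNJ2 (41.1%) and KCNJ12 (38.65%) varied most. None of the 10 separated the arms, where 16.2% of all genes tested did. KCNJ3 had 26.2, 20.8 and 29.9 RPKM in pacing and 31, 19.2 and 27.1 in sham (log2 difference 0.00 ± 0.20, SE; adjusted p = 0.996). KCNJ6, its partner in neuronal G protein-gated channels, had 7.97, 9.45 and 8.03 RPKM in pacing and 8.04, 5.12 and 8.56 in sham (log2 difference 0.23 ± 0.18, SE; adjusted p = 0.708). KCNJ9, another neuronal subunit, averaged 2.12 ± 0.222 RPKM under pacing against 2.14 ± 0.216 under sham. KCNJ3 was 2.20 to 3.86 times KCNJ6 in each library, and KCNJ9 was lower still, at 0.0630 to 0.114 times KCNJ3.

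KCNJ10, the potassium uptake channel of astrocytes, had 19.4, 19.2 and 18.9 RPKM in pacing and 16.1, 22.3 and 15.9 in sham. Pacing libraries agreed closely and sham libraries lay on both sides of them (log2 difference 0.10 ± 0.14, SE; adjusted p = 0.848). Its highest value fell in sham replicate 2, where 3 of 5 astrocyte markers (GFAP, AQP4 and GJA1) were also highest while SLC1A2 and SLC1A3 were highest in pacing replicate 1. The part of astrocyte content in it was not tested. Without that library KCNJ10 had an unadjusted p under 0.05 in limma (adjusted p = 0.308). KCNJ16, its partner, had 2.1, 2.15 and 2.65 RPKM in pacing and 2.46, 1.68 and 2.47 in sham and was lowest in sham replicate 2. The ratio of KCNJ10 to KCNJ16 was therefore 13.3 there and 6.43 to 9.20 in the other libraries.

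KCNJ2, a classical strong inward rectifier, showed the largest negative difference of all members. It had 0.866, 1.34 and 1.25 RPKM in pacing and 1.22, 2.63 and 1.89 in sham, high in sham replicates 2 and 3, while sham replicate 1 lay within the pacing values (log2 difference -0.41 ± 0.19, SE; adjusted p = 0.563). KCNJ12, of the same class, had 1, 1.44 and 1.43 RPKM in pacing and 1.06, 2.48 and 1.13 in sham and was high in sham replicate 2 alone. KCNJ4 averaged 1.98 ± 0.387 RPKM under pacing against 1.97 ± 0.421 under sham and KCNJ14 averaged 1.26 ± 0.095 RPKM under pacing against 1.33 ± 0.156 under sham. KCNJ11, the pore of the ATP-sensitive channel, was the member that varied least, with 3.38, 3.61 and 3.2 RPKM in pacing and 3.18, 3.91 and 3.61 in sham and a coefficient of variation of 8.12%.

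Two-pore channels were led by KCNK1, with 22.8, 29.9 and 23.9 RPKM in pacing and 26.7, 16.6 and 15.6 in sham (log2 difference 0.39 ± 0.21, SE; adjusted p = 0.611). Sham replicates 2 and 3 were its lowest libraries and sham replicate 1 lay within the pacing range. KCNK10, a mechanically and lipid-gated channel, had 8.67, 9.21 and 8.63 RPKM in pacing and 8.44, 15.6 and 7.38 in sham, and sham replicate 2 stood 1.81-fold above the median of the others. KCNK6 had 4.05, 4.92 and 4.9 RPKM in pacing and 3.75, 9.69 and 4.46 in sham, and sham replicate 2 stood 2.17-fold above. KCNK2, a close relative of KCNK10, had 0.642, 0.644 and 0.689 RPKM in pacing and 0.514, 1.27 and 0.853 in sham, highest in the same library (log2 difference -0.16 ± 0.15, SE; adjusted p = 0.749).

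Without sham replicate 2 the difference of KCNK10 turned from -0.16 to 0.14 and that of KCNK6 from -0.22 to 0.14, in the limma fit. KCNK9, an acid-sensitive channel, averaged 1.61 ± 0.341 RPKM under pacing against 1.19 ± 0.238 under sham, KCNK4 averaged 0.989 ± 0.138 RPKM under pacing against 0.871 ± 0.0817 under sham and KCNK12 averaged 1.48 ± 0.712 RPKM under pacing against 1.68 ± 0.207 under sham. None of the 7 separated the arms, where 16.2% of all genes tested did.

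Among calcium-activated channels, KCNN2, the small-conductance channel of the afterhyperpolarisation in pyramidal cells, was the most abundant, with 12.2, 12.8 and 12.6 RPKM in pacing and 14.6, 10.9 and 11.1 in sham (log2 difference 0.05 ± 0.12, SE; adjusted p = 0.919). KCNN3, of the same family, was the member whose pacing values all lay below its sham values, with 1.31, 1.37 and 1.34 RPKM in pacing and 1.53, 1.67 and 2.05 in sham (log2 difference -0.23 ± 0.11, SE; adjusted p = 0.566). The pacing libraries were within 0.056 RPKM of each other, and sham replicate 1 lay nearest to them. KCNN3 lay at chromosome 7 from 42562500 to 42704862 (CanFam3.1), and 1.32% of its exon bases overlapped PMVK on the same strand. KCNN1 had 4.2, 4.86 and 3.78 RPKM in pacing and 1.82, 4.12 and 3.6 in sham, and sham replicate 1 was the lowest library.

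KCNN4, the intermediate-conductance channel found in blood cells and microglia, had 4.58, 4.47 and 4.77 RPKM in pacing and 3.28, 8.3 and 6.39 in sham (log2 difference -0.25 ± 0.26, SE; adjusted p = 0.777). It was high in sham replicates 2 and 3 and lowest in sham replicate 1. The 6 microglial markers summed to 83.2, 98.5 and 82.7 in pacing and 65.3, 71.4 and 58.7 in sham, an order that differed from that of KCNN4. CD74 made up the largest part of this sum in every library. The markers did not share a profile: CSF1R was highest in sham replicate 2, as KCNN4 was, and the other 5 were highest in pacing replicate 2. The part of microglial content in KCNN4 was not tested.

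KCNMA1, the pore of the large-conductance channel, had 8.12, 8.2 and 8.8 RPKM in pacing and 9.22, 5.55 and 9.45 in sham (log2 difference 0.08 ± 0.18, SE; adjusted p = 0.915). KCNMB4, its neuronal auxiliary subunit, had 6.26, 4.65 and 6.47 RPKM in pacing and 5.38, 8.22 and 7.77 in sham (log2 difference -0.25 ± 0.18, SE; adjusted p = 0.679). The ratio of KCNMB4 to KCNMA1 was 1.48 in sham replicate 2 and 0.567 to 0.822 in the others. KCNMB2 averaged 0.545 ± 0.017 RPKM under pacing against 0.61 ± 0.163 under sham (log2 difference -0.05 ± 0.10, SE; adjusted p = 0.889). Of the sodium-activated relatives, KCNT2 averaged 2.52 ± 0.187 RPKM under pacing against 2.9 ± 1.01 under sham and KCNT1 averaged 1.44 ± 0.622 RPKM under pacing against 1.76 ± 0.515 under sham (log2 difference -0.19 ± 0.22, SE; adjusted p = 0.793).

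Set side by side, the families overlapped between arms in their summed level, and no family was separated. Voltage-gated pores held 39.8% of the summed RPKM of the members on average over 6 libraries and auxiliary subunits 29.6%. Inward rectifiers held 13.4%, calcium-activated channels 8.64% and two-pore channels 8.51%. The summed RPKM of auxiliary subunits was 156, 193 and 149.6 in pacing and 155, 120 and 117 in sham, and that of pores 201, 222 and 205 in pacing and 215, 162 and 185 in sham. In both, sham replicate 1 lay among the pacing libraries and the other sham libraries below. The inward rectifier sum was steadier, at 66.6, 63.1 and 70.6 in pacing and 68.4, 63.5 and 65.4 in sham, and the calcium-activated sum was 41.6, 40 and 42.7 in pacing and 41.8, 43.4 and 45.5 in sham. The two-pore sum was 40.2, 48.3 and 42.7 in pacing and 43.4, 46.7 and 32.1 in sham. As a share, auxiliary subunits stood at 31.4 ± 2.44% in pacing and 27.8 ± 1.65% in sham, and calcium-activated channels at 7.89 ± 0.718% and 9.39 ± 1.23%.

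By median log2 difference the families stood at 0.07 for voltage-gated pores (17 of 29 higher), 0.04 for auxiliary subunits (4 of 8), 0.00 for inward rectifiers (5 of 10), -0.15 for two-pore channels (3 of 7) and -0.11 for calcium-activated channels (3 of 9), beside -0.04 for all genes tested. The 6 members with an unadjusted p under 0.05 were 4 voltage-gated pores and 2 auxiliary subunits. The differences between families were not tested. The two-pore median turned to 0.14 without sham replicate 2, 0.10 without pacing replicate 2 and 0.04 with library weights.

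**Figure D4:**
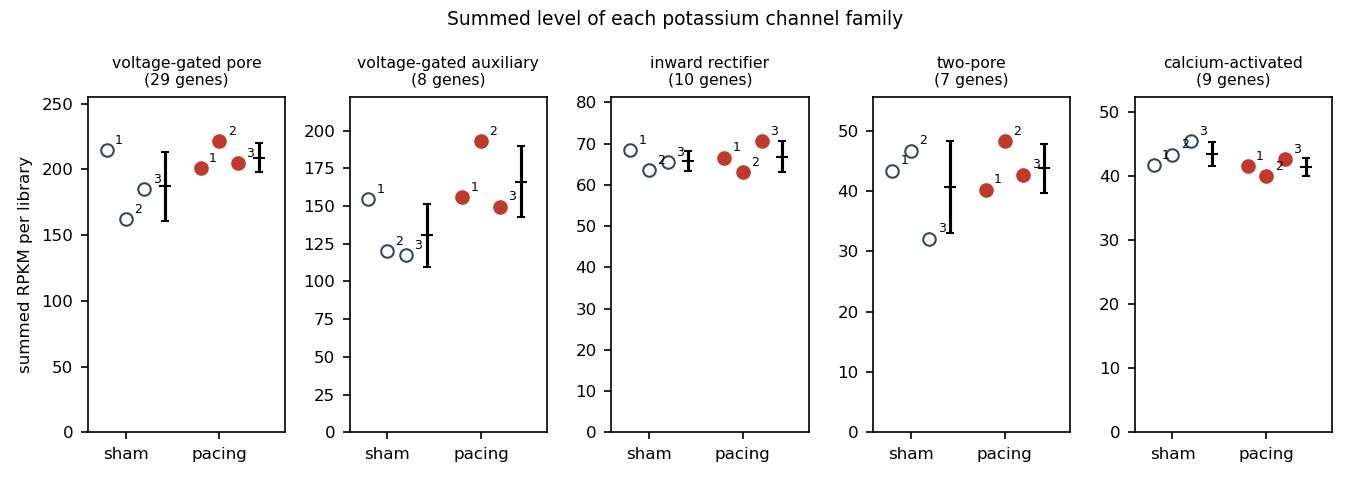
Summed RPKM of each family in each library (number: replicate), with bars of mean and SD over 3 libraries per arm and each axis starting at 0. In the voltage-gated pore and auxiliary panels sham replicate 1 lies within the pacing values, and sham replicates 2 and 3 lie below.

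Of 63 members 57 had their highest or lowest value in sham replicate 2 or 3, where 84.4% of all genes tested had theirs. Of the 63 members, 23 were lowest and 15 highest in sham replicate 2 (36.5% and 23.8%, against 24% and 33% of all genes tested). In sham replicate 3, 14 were lowest and 18 highest (22.2% and 28.6%, against 15.5% and 24.8%). Of the voltage-gated pores 15 of 29 were lowest in sham replicate 2 and 4 highest, while of the inward rectifiers 6 of 10 were highest there and 3 lowest. Sham replicates 2 and 3 also differed from each other for many genes. KCNQ5, KCND3, KCNIP2, KCNG1 and KCNA3, chosen after their values were seen, were lowest in sham replicate 2 and highest in sham replicate 3. KCNIP3, KCND2, KCNG4, KCNK1 and KCNAB2, chosen in the same way, were lowest in sham replicate 3, low in sham replicate 2 and highest in pacing replicate 2.

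The sum of granule and pyramidal neuron markers was highest in pacing replicate 2 (772 RPKM) and lowest in sham replicates 2 and 3 (459 and 497). NEUROD6 and CAMK2A made up most of it, and the markers did not share 1 profile. Of the 8, 4 were highest in pacing replicate 2 (SLC17A7, CAMK2A, NEUROD2 and NEUROD6). PROX1, CALB1 and WFS1 were lower there than in the other pacing libraries, and WFS1 was highest in sham replicate 3. The lowest value fell in sham replicate 3 for 5 markers and in sham replicate 2 for 3. All 8 had a log2 difference above 0, and 0 passed. RBFOX3 and WFS1 hardly differed between the arms. RBFOX3 had 13.6, 15 and 13.3 RPKM in pacing and 15.3, 13.8 and 12.8 in sham. WFS1 had 4.14, 3.35 and 3.91 RPKM in pacing and 3.75, 3.34 and 4.31 in sham. The part of neuronal content in the potassium channel values was not tested. The 8 interneuron markers summed to 223, 170.3 and 189.7 in pacing and 219, 159 and 233 in sham, and 6 of 8 were lower in pacing by arm mean. Choroid plexus markers varied widely, with TTR from 2.46 RPKM in sham replicate 1 to 449 in sham replicate 2, and FOLR1 had no read in sham replicate 1.

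Sums of some other marker lists did not overlap between the arms, although none of their genes passed. By arm mean 5 of 6 microglial, 2 of 2 tested oligodendrocyte precursor and 5 of 5 pericyte or smooth muscle markers were higher in pacing. Their sums were higher in every pacing library than in any sham library, at 82.7 to 98.5 against 58.7 to 71.4 RPKM, 8.97 to 10.8 against 6.96 to 7.96, and 35.4 to 38.4 against 29.3 to 33.7. Of the precursor markers only OLIG2 separated the arms, and PDGFRA overlapped. CSPG4, in the sum but too low to be tested, was lower in pacing by arm mean. It had 0.176, 0.193 and 0.184 RPKM in pacing and 0.228, 0.181 and 0.311 in sham. The 5 immediate early genes in the table respond to neuronal activity. They summed to 7.69, 8.3 and 7.64 in pacing and 9.22, 35.3 and 15.9 in sham, and this sum was lower in every pacing library. Gene by gene, only FOSB separated the arms. In sham replicate 1, FOS (0.425 RPKM), JUNB (3.99), EGR1 (1.82) and NPAS4 (0.00962) each lay below a pacing library. Sham replicate 2 was highest for all 5, and for 15 of the 63 members (23.8%, against 33% of all genes tested). The 4 ependymal markers summed to 12.4 to 22.5 RPKM in pacing and 15.3 to 33.1 in sham, and the 5 endothelial markers to 24.3 to 25.1 and 19.9 to 26.1. The part of these cell types and of activity in the potassium channel values was not tested.

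**Figure D5:**
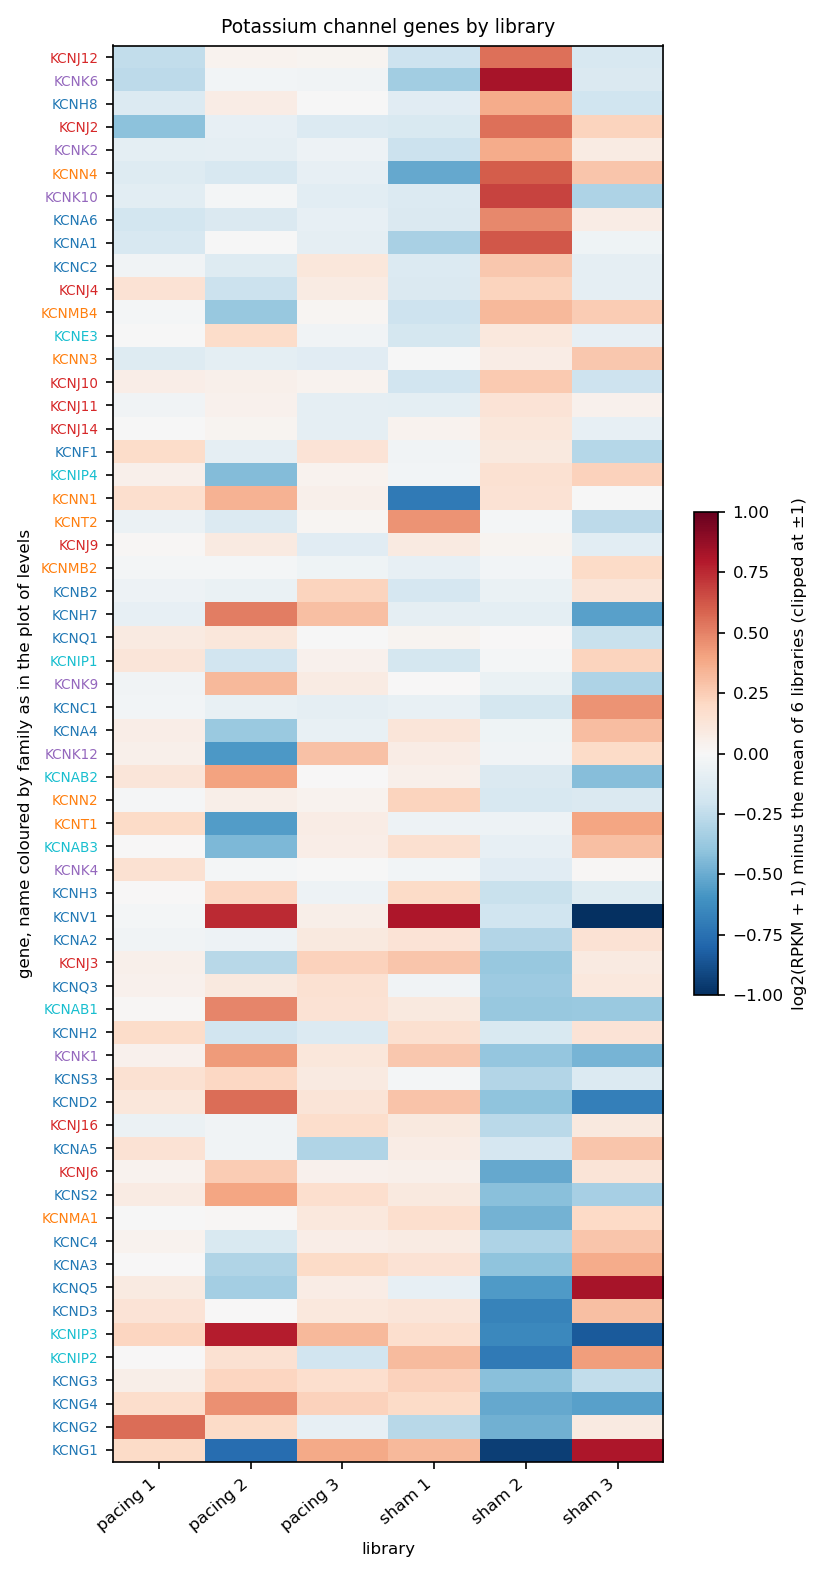
Deviation of log2(RPKM + 1) from the mean of 6 libraries for 61 of the 63 genes (rows, names coloured by family) and library (columns), with rows ordered by the ratio of sham replicate 2 to the median of the others. Sham replicate 2 is high for the genes at the top, such as KCNJ12 and KCNK6, and low for those at the bottom, such as KCNG1, and sham replicate 3 is at the other extreme for several of the latter.

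For 3 genes of different families the members most like them over the 6 libraries were listed by Pearson correlation of log2(RPKM + 1), as a description only, since the points share 6 libraries and their composition. KCNC1 was most like KCNMB2 (r = 0.941), KCNQ5 (0.92) and KCNC4 (0.779), and these were -0.0617, 0.813 and 0.77 without sham replicate 3, so the likeness to KCNMB2 rested on that library. KCNJ10 was most like KCNH8 (0.844), KCNK10 (0.838) and KCNK6 (0.784), and these fell to 0.643, 0.775 and 0.475 without sham replicate 2. KCNMA1 was most like KCNA2 (0.975), KCND3 (0.972) and KCNJ16 (0.925), and the values were 0.976, 0.697 and 0.773 without that library.

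Of 34 genes whose proteins assemble with, anchor or regulate these channels, 30 were tested, and 0 passed in either direction. By log2 difference 20 were higher in pacing and 10 lower, with a median of 0.11. The arms did not overlap for 2 of the 30, both higher in pacing (against 4.92% of all genes, and 16.2% in either direction). An unadjusted limma p under 0.05 was reached by 1 of the 30, against 9.15% of all genes. GNB5, a G protein beta subunit that works with regulators of G protein-gated inward rectifiers, had 24.1, 25.9 and 25.3 RPKM in pacing and 22.3, 17.1 and 19.8 in sham, and its arms did not overlap (log2 difference 0.34 ± 0.11, SE; adjusted p = 0.467; unadjusted p = 0.0203). CALM2, which encodes calmodulin, the calcium sensor of KCNN and KCNQ channels, averaged 10770 ± 1292 RPKM under pacing against 8510 ± 1823 under sham (adjusted p = 0.625). ANK3, the ankyrin that holds KCNQ channels at the axon initial segment, averaged 30.1 ± 2.05 RPKM under pacing against 34.8 ± 4.91 under sham (adjusted p = 0.643). RGS6 averaged 1.84 ± 0.6 RPKM under pacing against 2.31 ± 0.523 under sham and LRRC55, an auxiliary subunit of the KCNMA1 channel, averaged 1.23 ± 0.146 RPKM under pacing against 1.78 ± 0.939 under sham (adjusted p = 0.72 and 0.727). DPP6, the transmembrane partner of KCND2, was picked out afterwards and averaged 45.2 ± 1.73 RPKM under pacing against 42.6 ± 10.4 under sham.

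Exons of 13 members overlapped those of another gene model, by 0.278% to 7.24% of the member's exon bases, on the other strand for 11 of them. The strand setting of the counting was not stated, so reads in these stretches cannot be assigned to either gene. KCNC4 overlapped LOC102152925, which was at 17.6 RPKM, over 2.15% of its bases, and KCNAB3 overlapped CNTROB (8.90 RPKM) over 2.49%.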

How the data were processed

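Hippocampal mRNA of 6 beagle libraries was analysed, 3 after pacing and 3 after sham. The tools named in the submitters' processing notes are STAR 2.5.3a, featureCounts and Trimmomatic 0.36, with no order, annotation release or strand setting. The authors deposited RPKM values with a length column. RPKM times length gave whole reads for 100% of values in each library (tolerance 1e-06 reads), summing to 35003483 to 51789497 reads. Within an arm no libraries agreed within counting noise (chi-square per degree of freedom 12.1 to 208). Sequence names and coordinates are those of CanFam3.1 as in the deposited table.

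Genes with a mean of at least 0.5 RPKM were tested with limma 3.58.1 in R 4.3.3 on log2(RPKM + 1), with a variance trend and no covariate, two-sided, adjusted over 16090 genes. The pseudocount of 1 shrinks the differences of low genes. Alternatives changed the pseudocount (0.1 or 5), the filter, scaling, library weights and variance trend, blocked on replicate number, or dropped each library in turn. The fit was tested on simulated reads with the same dispersion (0.018) for every gene and no library that departed from the rest. There it called 48 of 50 genes raised 2-fold and 48 of 50 lowered to 0.5-fold, with 10 false calls. The real libraries differ from these settings, so the recovery does not carry over to them.

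Members, families and lists were chosen with earlier results of these data known. Named by rule were the 10 members of smallest p in each direction, the 3 most abundant of each family, the 3 of largest coefficient of variation, and those nearest the level threshold. Other members are named only to account for them, and values of a few genes are not reported here, although counts and sums include them. Of the partner genes the 3 of smallest p in each direction were named. Genes of the RefSeq table (assembly UU_Cfam_GSD_1.0) gave the gene type only. No sequence is shown.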

Additional observations from a re-analysis of the deposited data

How the results depend on the processing

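No potassium channel gene passed under any of the 15 alternatives reported (lowest adjusted p = 0.0581, KCNG4 without sham replicate 1). The number of passing genes in the whole table was 4 and became 23 with library weights, 7 with no filter, 7 with the replicate block and 3 to 95 when 1 library was left out, 95 without sham replicate 1. No pairing by replicate number was detected: deviations from the arm means correlated at -0.111, 0.0636 and -0.0109 for replicates 1, 2 and 3. With 3 libraries per arm these values cannot exclude a pairing. Under the replicate block 0 members passed. A planned count test on reads recovered from RPKM is not reported, since the deposited values are not counts. The cause of these changes was not tested.

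The two-pore median of -0.15 became 0.0422 with library weights, -0.0488 at a pseudocount of 5, -0.0872 under quantile scaling, -0.0979 under scaling by median ratios and -0.15 to 0.14 when 1 library was left out. The auxiliary median of 0.0401 became 0.0462 to 0.136 when 1 library was left out and -0.0173 at a mean RPKM of at least 1. Other family medians, and family shares, moved by less than the spread between libraries. Of these the pore median took the other sign without pacing replicate 3 (-0.00623), and the inward rectifier median lay on both sides of 0 (-0.0406 to 0.0417). With library weights the difference turned to -0.0765 for KCNA2, -0.0529 for KCNJ3, 0.0422 for KCNK10 and -0.0553 for KCNMA1. When 1 library was left out, the range was -0.14 to 0.0812 for KCNA2, -0.0439 to 1.06 for KCNV1, -0.63 to 0.24 for KCNG1, -0.18 to 0.15 for KCNJ3, -0.35 to 0.14 for KCNK10 and -0.45 to 0.14 for KCNK6. It was -0.0174 to 0.18 for KCNN2, -0.14 to 0.19 for KCNMA1, -0.34 to 0.0343 for KCNT1 and -0.11 to 0.0258 for KCNMB2. The other 23 genes named by rule kept their direction under all alternatives that could be fitted. Counts at an unadjusted p under 0.05, and counts of members with separate arms, without each library were added after the data were seen; members with separate arms were 4 in all libraries (16.2% of all genes) and 5 to 22 when 1 library was left out (22 without sham replicate 1, where 38.4% of all genes were apart). Members near the level threshold rested on few reads (22 at the lowest in 1 library), which limits their precision.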
